A study of Mus musculus with 12 samples.

Results

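The genes described here are 9 germline genes of the piRNA pathway and of transposon defence: Mael, Tex19.1, Asz1, Ddx4, Tdrd1, Tdrkh, Piwil2, Mov10l1 and Pld6. They were taken by symbol from a list of names that was chosen with earlier results of these data known. All 9 were found among the 39017 genes of the deposited table and among the 17885 genes tested. They were followed in 12 poly(A) RNA-seq libraries of mouse embryonic stem cells (mESCs), with 3 replicates, labelled biological, in each of 4 groups made by 2 cell lines and 2 media. Separate cultures are not stated, so p-values measure only the spread between these samples. The study asked whether mESCs that keep DNA methylation in 2i have the transcriptome of other cells in that medium.

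J1 mESCs are male and wild type. The line labelled 3B3-3l is Dnmt3a-/- and Dnmt3b-/-, carries a Dnmt3b transgene driven by the CAG promoter, and was stably transfected with a CAG-driven Dnmt3l-Flag construct selected with blasticidin. One such line was sequenced, so genotype and line cannot be told apart. J1 serum and 3B3-3l serum cells grew in fetal calf serum with LIF. J1 2i and 3B3-3l 2i cells grew in N2B27 medium with LIF, the MEK inhibitor PD0325901 at 1 uM and the GSK3 inhibitor CHIR99021 at 3 uM. In serum, J1 cells were kept on inactivated SNLP feeder cells and 3B3-3l cells on gelatin, so that surface and line cannot be told apart in that medium. Feeders were depleted before analysis and before conversion to 2i, by letting them attach to the dish, and in J1 the change of medium went together with the change from feeders.

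piRNAs are small RNAs of germ cells that guide PIWI proteins to transposon transcripts. Long precursor RNAs are handed to the outer membrane of mitochondria, cut, loaded into a PIWI protein and trimmed, while tudor domain proteins and RNA helicases hold the parts together in cytoplasmic granules called nuage. Several genes of this pathway have CpG-rich promoters that are methylated and silent in somatic tissues, and some are transcribed in mESCs although these cells are not germ cells. Silencing of germline genes in mESCs also involves a polycomb complex that holds MGA and MAX, which bind the E-box CACGTG, and E2F6, which binds sites such as GCGGGA.

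RefSeq promoter windows (GRCm38.p6) were given for 8 of the 9 genes. Piwil2 had none. The promoters of Mael, Ddx4, Mov10l1, Tdrd1 and Tex19.1 are shown because these genes changed with the medium in both lines and their windows hold one of the motifs searched. Each line gives the 250 bases before the start used for the window, 5′ to 3′ on the strand of the gene. For Ddx4, Mov10l1 and Tdrd1 that start lies inside the gene span given below. The printed stretch of Ddx4 therefore lies wholly within its span, and those of Mov10l1 and Tdrd1 lie partly within theirs. Tdrd1 had other windows, which are not shown. Capitals mark CACGTG or GCGGGA, or TCCCGC, which is GCGGGA on the other strand.
Mael (chr1:166238745-166238994, minus strand): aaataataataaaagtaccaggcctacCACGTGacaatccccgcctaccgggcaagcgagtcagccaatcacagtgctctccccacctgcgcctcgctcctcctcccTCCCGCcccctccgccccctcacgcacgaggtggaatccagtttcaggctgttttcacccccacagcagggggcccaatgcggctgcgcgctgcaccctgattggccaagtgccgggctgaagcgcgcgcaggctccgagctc
Ddx4 (chr13:112652311-112652560, minus strand): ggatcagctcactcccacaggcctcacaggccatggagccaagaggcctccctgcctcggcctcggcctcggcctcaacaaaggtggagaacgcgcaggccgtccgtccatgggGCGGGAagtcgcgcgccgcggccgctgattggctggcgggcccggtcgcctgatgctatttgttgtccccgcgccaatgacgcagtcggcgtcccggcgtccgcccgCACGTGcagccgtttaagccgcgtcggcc
Mov10l1 (chr15:88982744-88982993, plus strand): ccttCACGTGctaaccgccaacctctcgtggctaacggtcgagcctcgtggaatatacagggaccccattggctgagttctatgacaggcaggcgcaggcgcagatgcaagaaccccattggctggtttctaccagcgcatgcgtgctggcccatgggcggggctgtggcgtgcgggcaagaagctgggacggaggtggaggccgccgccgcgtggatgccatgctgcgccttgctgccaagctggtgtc
Tdrd1 (chr19:56826025-56826274, plus strand): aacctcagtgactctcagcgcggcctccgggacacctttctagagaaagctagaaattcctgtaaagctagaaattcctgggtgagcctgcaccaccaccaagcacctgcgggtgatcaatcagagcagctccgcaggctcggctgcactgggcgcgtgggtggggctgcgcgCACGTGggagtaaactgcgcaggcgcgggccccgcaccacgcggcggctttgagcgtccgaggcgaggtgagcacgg
Tex19.1 (chr11:121145893-121146142, plus strand): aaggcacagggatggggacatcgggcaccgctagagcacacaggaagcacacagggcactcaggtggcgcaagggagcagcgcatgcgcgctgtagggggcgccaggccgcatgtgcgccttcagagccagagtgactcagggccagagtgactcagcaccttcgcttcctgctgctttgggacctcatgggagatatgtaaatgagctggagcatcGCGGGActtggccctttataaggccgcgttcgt

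In windows of 250 bases before to 50 after the start, the genes were richer in CpG than most promoters. Observed over expected CpG ranged from 0.575 in Tex19.1 to 0.978 in Ddx4, apart from 1 of 3 Tdrd1 windows at 0.216. The median over all 32851 windows was 0.384. The letters CACGTG, searched on both strands, stood in 7.15% of all windows and in those of Mael, Ddx4 and Mov10l1, in 2 overlapping windows of Tdrd1 and in 1 of 2 windows of Pld6. The letters GCGGGA stood in 19.98% of all windows and in those of Mael, Ddx4 and Tex19.1. TGACGTCA, a cAMP response element, stood in 1.79% of all windows and in none of the 11 windows of these genes. The 3 motifs cannot overlap by more than their end letters, and a match is only a description of the sequence. CACGTG and GCGGGA each hold a CpG, and the shares over all windows are not matched for CpG content. They are therefore no measure of enrichment in these CpG-rich windows.

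**Figure D1:**
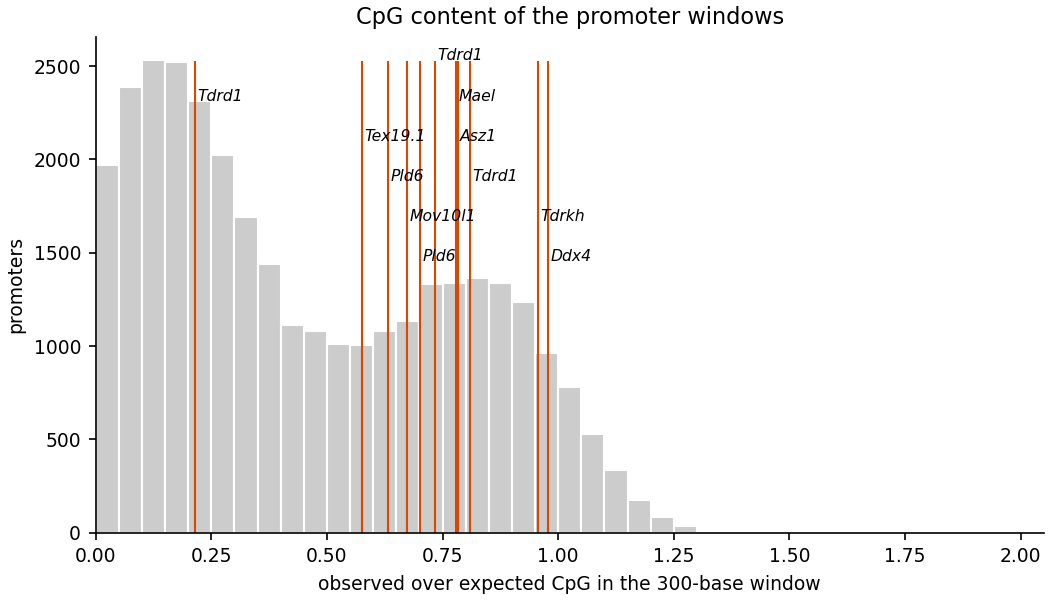
Histogram of observed over expected CpG (x axis, no unit) in the 300-base windows of 32851 promoters (y axis, number of promoters), with an orange line for each of the 11 windows of 8 genes. Of these, 10 lie between 0.575 and 0.978, above the median of 0.384, and 1 Tdrd1 window lies at 0.216.

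Estimated reads per library ranged from 37050652 to 44515395. Levels are given as CPM (counts per 1000000 reads, with library sizes scaled by TMM), and 3 counts, taken as the floor, came to 0.0674 to 0.081 CPM, a limit that covers counting error only. The targeted genes followed their labels in part. Dnmt3b stood at 865.7 to 935.9 CPM in the 6 libraries of 3B3-3l and fell in J1 from 404.1 or more in serum to 47.2 or less in 2i. Dnmt3l stood at 284.6 to 285.4 CPM in J1 serum, 47.9 to 55.5 in J1 2i, 447.6 to 510.7 in 3B3-3l serum and 285.1 to 294.2 in 3B3-3l 2i. Dnmt3a reads remained in 3B3-3l, at 29.4 to 34.3 CPM in serum and 3.997 to 5.07 in 2i, and counts over a whole gene do not show which part of it was transcribed. The 6 mESC markers summed to 3307 to 5468 CPM. The 12 germ cell markers summed to 258.3 to 275.2 CPM in J1 serum, 458.9 to 512.0 in J1 2i, 288.9 to 302.9 in 3B3-3l serum and 498.3 to 508.9 in 3B3-3l 2i, most of it from Kit and Itga6. Of the 7 tested, 4 rose and 3 fell in 2i in J1, and 3 rose and 3 fell in 3B3-3l. Over all genes 33.2% were called higher and 32.9% lower in J1, and 32.7% higher and 32.7% lower in 3B3-3l. Kit rose by log2 2.24 and 2.25 and Zbtb16 by 2.55 and 3.44 in J1 and 3B3-3l, while Prdm1 fell by 1.54 and 1.60 on the log2 scale. The other 5 are sperm genes: Prm2 was at 0 in every library, Prm1, Acr and Tnp1 had at most 0.0783 CPM, and Acrv1 had at most 0.313. Most feeder fibroblast markers moved with the medium. Their 10 genes summed to 66.2 to 68.9 CPM in J1 serum, 81.4 to 93.3 in 3B3-3l serum, 25.6 to 26.8 in J1 2i and 15.9 to 16.2 in 3B3-3l 2i. Of the 7 tested, 6 fell in 2i in each line, beside 32.9% of all genes lower in J1 and 32.7% in 3B3-3l. Among these, Col3a1, Col6a1 and Acta2 passed the filter on low counts through the serum groups alone, so their fall is a description. The seventh, Pdgfrb, rose in J1 from a mean of 6.31 to 19.5 CPM (log2 1.62 ± 0.10, edgeR adjusted p = 5.85e-10), which is most of the J1 2i sum, and was not called in 3B3-3l (log2 -0.01 ± 0.10). Lum was at 0 in J1 serum, and Lum and Dcn were at 0 in both 2i groups. The sums were higher in 3B3-3l serum, grown on gelatin, than in J1 serum. The part of any such cells in the results was not tested. Markers of 2-cell-like cells, 4 genes, summed to 6.40 to 7.62 CPM in serum, 1.09 to 1.54 in J1 2i and 3.80 to 4.49 in 3B3-3l 2i.

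Most of the 9 genes were lower in 2i than in serum, in both lines. In J1, 6 genes fell (Mael, Ddx4, Tdrd1, Tdrkh, Piwil2 and Mov10l1), 2 rose (Tex19.1 and Asz1) and Pld6 was not called. In 3B3-3l the same 6 genes fell, Tex19.1 rose, and Asz1 and Pld6 were not called. Genes were called by edgeR's quasi-likelihood test where p, adjusted by Benjamini-Hochberg across the 17885 genes, was under 0.05, by which 66.1% of all genes were called in J1 (33.2% higher and 32.9% lower) and 65.4% in 3B3-3l (32.7% higher and 32.7% lower). The median log2 fold change of the 9 genes was -1.01 in J1 and -1.29 in 3B3-3l, beside 0.01 over all genes in each line. Without Asz1, which passed the filter on low counts through J1 2i alone, 7 of 8 genes were called in J1, 1 higher and 6 lower. The share of all genes called in the same direction in both lines was not counted. Fewer cells with a transcript and less of it per cell cannot be told apart in bulk RNA.

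**Figure D2:**
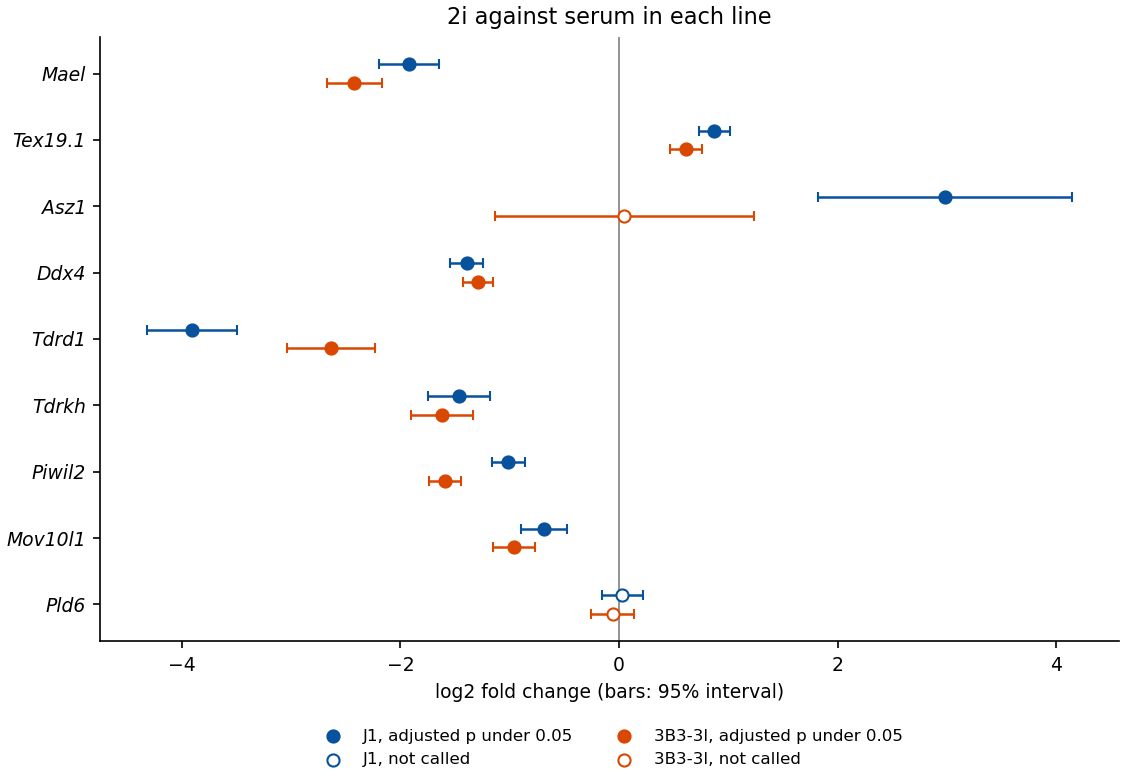
Log2 fold change of each gene in 2i against serum (x axis) for J1 (blue) and 3B3-3l (orange), with bars for the 95% interval, filled points for genes called at an adjusted p under 0.05 and open points for the others. 6 genes lie left of 0 in both lines, Tex19.1 lies right of 0 in both, and Asz1 lies at 2.98 in J1 and 0.05 in 3B3-3l.

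Piwil2 (chromosome 14, 70372477 to 70436898, ENSMUSG00000033644), which encodes the PIWI protein MILI, was lower in 2i in both lines. It stood at 18.4, 18.3 and 19.5 CPM in J1 serum and at 10, 9.14 and 8.66 in J1 2i. In 3B3-3l the values were 31.5, 33.9 and 33.8 CPM in serum and 11.4, 11.2 and 10.2 in 2i. Each 2i library lay below every serum library of both lines. The fall in 2i was 2.02-fold in J1 (log2 -1.01 ± 0.07 SE, edgeR adjusted p = 2.96e-09) and 3.01-fold in 3B3-3l (log2 -1.59 ± 0.07, edgeR adjusted p = 7.09e-12). In serum 3B3-3l exceeded J1 by 1.77-fold (log2 0.82 ± 0.07, edgeR adjusted p = 1.67e-07). In 2i the excess was 1.18-fold (log2 0.24 ± 0.07, edgeR adjusted p = 0.012), and it was no longer called without 3B3-3l 2i replicate 1 (edgeR adjusted p = 0.0523) or replicate 2 (edgeR adjusted p = 0.0695). The snRNA gene Gm24890 and the pseudogene Gm22725 lie within the span of Piwil2.

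Ddx4 (chromosome 13, 112598333 to 112652633, ENSMUSG00000021758), the RNA helicase VASA of germ cell granules, also followed both medium and line. Its levels were 15.6, 15.9 and 16.3 CPM in J1 serum and 6.13, 6.43 and 5.61 in J1 2i. They were 24.4, 25.1 and 25.8 CPM in 3B3-3l serum and 11.0, 9.78 and 10.1 in 3B3-3l 2i. No 2 of the 4 groups overlapped, and the order ran from 3B3-3l serum through J1 serum and 3B3-3l 2i to J1 2i. The fall in 2i was 2.63-fold in J1 (log2 -1.39 ± 0.07, edgeR adjusted p = 6.49e-11) and 2.45-fold in 3B3-3l (log2 -1.29 ± 0.07, edgeR adjusted p = 6.01e-11). 3B3-3l was higher by log2 0.66 ± 0.06 in serum (edgeR adjusted p = 1.14e-06) and by 0.76 ± 0.07 in 2i (edgeR adjusted p = 5.38e-07).

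Mov10l1 (chromosome 15, 88982891 to 89055152, ENSMUSG00000015365) encodes the helicase that binds piRNA precursors. It stood at 8.05, 7.45 and 8.59 CPM in J1 serum and 4.49, 5.26 and 5.24 in J1 2i, a fall of 1.61-fold (log2 -0.68 ± 0.10, edgeR adjusted p = 1.46e-05). In 3B3-3l it stood at 14.6, 17.2 and 15.2 CPM in serum and 8.42, 8.43 and 7.32 in 2i, a fall of 1.94-fold (log2 -0.96 ± 0.09, edgeR adjusted p = 1.11e-07). The 3B3-3l 2i libraries thus overlapped those of J1 serum, and both lay between the other groups. 3B3-3l was higher by log2 0.97 ± 0.09 in serum (edgeR adjusted p = 8.32e-07) and by 0.69 ± 0.10 in 2i (edgeR adjusted p = 3.04e-05). The snRNA gene Gm23737 lies within its span.

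The genes that act at the mitochondrial surface were Pld6, Tdrkh and Asz1, and they did not move together. Pld6 (chromosome 11, 59783893 to 59787657, ENSMUSG00000043648), the endonuclease that cuts piRNA precursors and is also called Zucchini, was the only one of the 9 genes not called for the medium in either line. Its levels were 8.62, 7.71 and 8.08 CPM in J1 serum and 8.11, 7.53 and 9.32 in J1 2i. In 3B3-3l they were 5.77, 5.85 and 5.72 CPM in serum and 5.22, 5.84 and 5.60 in 2i. These are levels of the whole gene, and most of its reads were assigned to Pld6-002, annotated as a processed transcript and not as coding. Its mean share of the reads was 74.4% in J1 serum, 79.1% in J1 2i, 75.1% in 3B3-3l serum and 69.7% in 3B3-3l 2i. The libraries of the media overlapped in each line, while every 3B3-3l library lay below every J1 library. The log2 difference of 2i from serum was 0.03 in J1 (95% interval -0.15 to 0.22, edgeR adjusted p = 0.773) and -0.06 in 3B3-3l (95% interval -0.26 to 0.14, edgeR adjusted p = 0.604). 3B3-3l was lower than J1 by 1.497-fold in 2i (log2 -0.58 ± 0.09, edgeR adjusted p = 6.92e-05) and 1.41-fold in serum (log2 -0.49 ± 0.09, edgeR adjusted p = 0.000478).

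Tdrkh (chromosome 3, 94413243 to 94434854, ENSMUSG00000041912), a tudor and KH domain protein needed for the trimming of piRNA ends, followed the medium. It stood at 7.09, 6.92 and 7.43 CPM in J1 serum and at 2.60, 1.93 and 3.24 in J1 2i. The values in 3B3-3l were 8.14, 8.70 and 9.50 CPM in serum and 2.91, 2.76 and 2.91 in 2i. The 2i groups overlapped each other and lay below all serum libraries. The fall was 2.76-fold in J1 (log2 -1.47 ± 0.13, edgeR adjusted p = 9.05e-08) and 3.07-fold in 3B3-3l (log2 -1.62 ± 0.13, edgeR adjusted p = 1.94e-08). Between the lines it was not called in 2i (log2 0.15, 95% interval -0.17 to 0.46, edgeR adjusted p = 0.447) or in serum (log2 0.30, 95% interval 0.04 to 0.55, edgeR adjusted p = 0.0618). The serum difference was called when only the 6 libraries compared were fitted (log2 0.27, edgeR adjusted p = 0.0224) and when 10 counts were required in every library (log2 0.31, edgeR adjusted p = 0.0479). The gene Oaz3 overlaps Tdrkh, so reads of the shared span could be split between them.

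Asz1 (chromosome 6, 18050964 to 18109061, ENSMUSG00000010796), a membrane protein of mitochondria also called GASZ, was close to the floor everywhere. It had 3, 0 and 2 counts in the J1 serum libraries and 13, 17 and 15 in those of J1 2i. The 3B3-3l libraries had 4, 6 and 3 counts in serum and 4, 7 and 3 in 2i. The J1 2i libraries stood above all others. In CPM the J1 serum libraries, at 0.07165 or less, also lay below those of 3B3-3l, at 0.07725 or more. The nearest libraries on each side held 3 counts. Asz1 passed the filter on low counts through J1 2i alone, so it had to differ in comparisons with that group, and its calls there are a description. Scaled by library size, the 45 counts of J1 2i were 8.53 times the 5 counts of J1 serum (95% counting interval 3.40 to 27.6), and the fitted log2 fold change was 2.98 ± 0.55 (edgeR adjusted p = 0.000168). The fitted value was 3.62 without J1 serum replicate 1, which held 3 of the 5 counts. It was 2.41 when replicate 2, which held none, was left out. In 3B3-3l the ratio of 14 counts to 13 was 1.00 (0.437 to 2.32). The 14 counts of 3B3-3l 2i were 0.31 times the 45 of J1 2i (0.157 to 0.575, fitted log2 -1.61 ± 0.45, edgeR adjusted p = 0.00764), and in serum the lines differed by log2 1.33 ± 0.69, which was not called (edgeR adjusted p = 0.142).

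**Figure D3:**
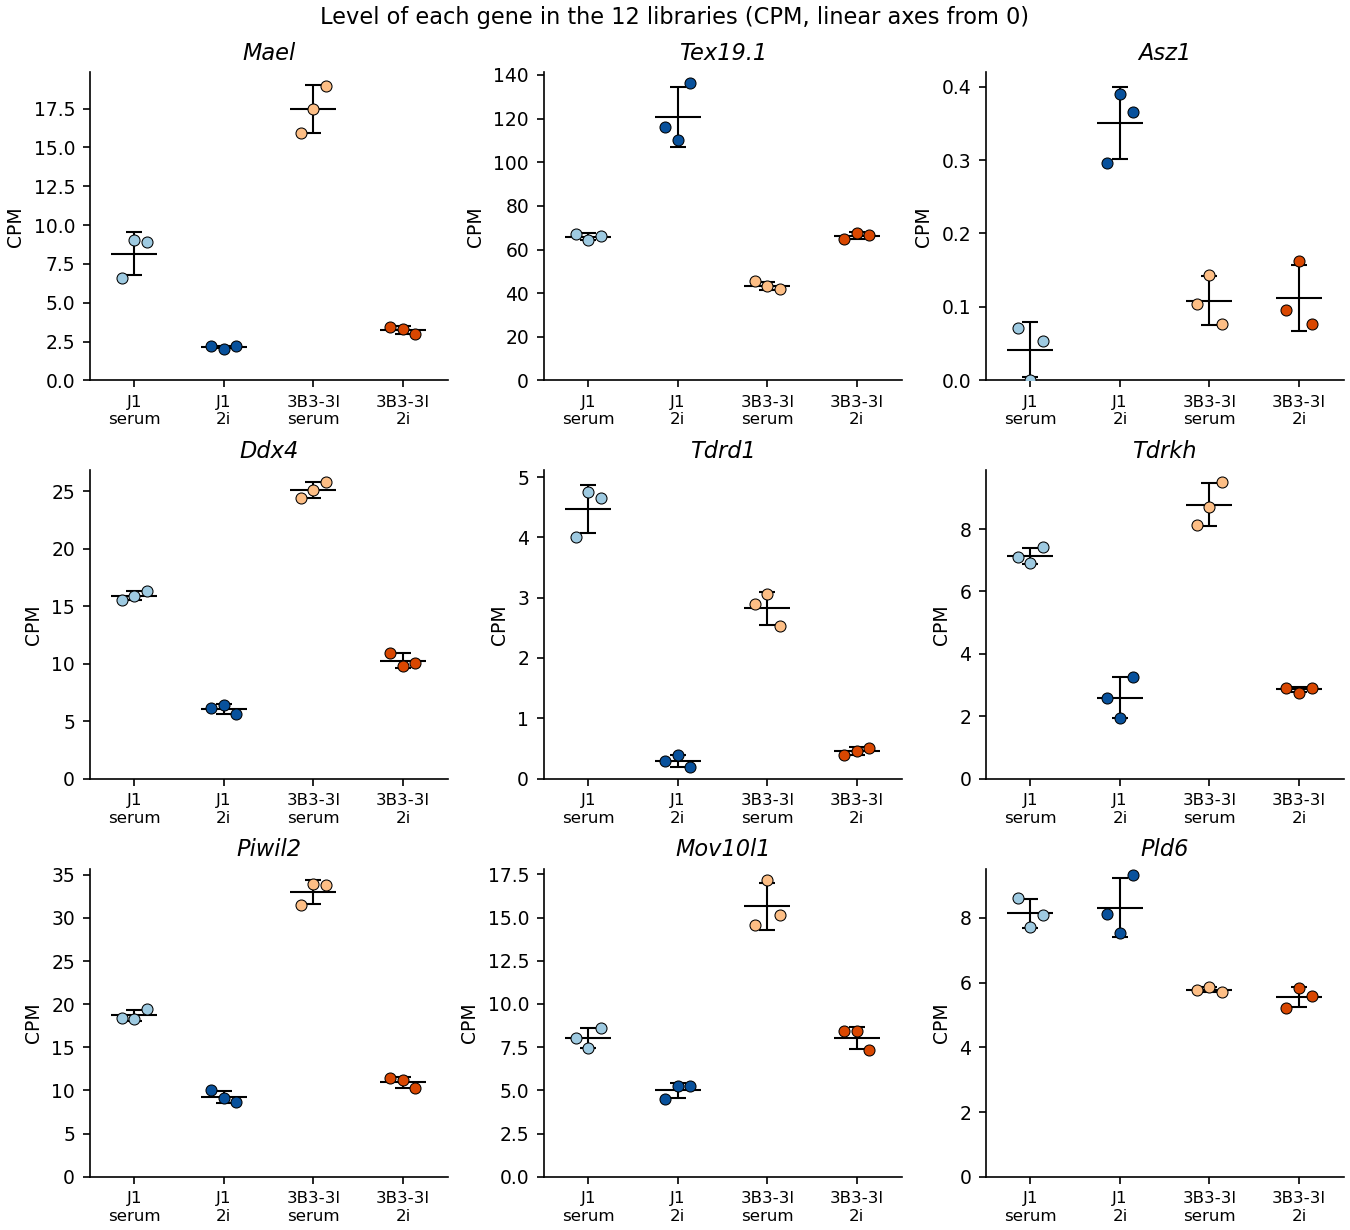
Level of each gene in CPM (y axes, linear and starting at 0) in the 12 libraries by group (x axes), with points for libraries, a bar for the mean and whiskers for the SD (n = 3). The 2i libraries of Mael, Ddx4, Tdrd1, Tdrkh, Piwil2 and Mov10l1 lie below the serum libraries of the same line, while those of Tex19.1 lie above.

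Tdrd1 (chromosome 19, 56826171 to 56870012, ENSMUSG00000025081), a tudor domain protein of nuage that binds methylated arginines of PIWI proteins, had the largest fall of the 9 genes in 2i in each line. It stood at 4.01, 4.75 and 4.66 CPM in J1 serum and at 0.296, 0.39 and 0.195 in J1 2i, the latter from 13, 17 and 8 counts. In 3B3-3l the levels were 2.90, 3.06 and 2.52 CPM in serum and 0.385, 0.463 and 0.516 in 2i, from 16, 20 and 20 counts. Serum and 2i libraries were far apart in both lines, and the order of the lines was opposite in the media. The fall was 15.0-fold in J1 (log2 -3.91 ± 0.20, edgeR adjusted p = 5.53e-11) and 6.20-fold in 3B3-3l (log2 -2.63 ± 0.19, edgeR adjusted p = 4.26e-09). In serum 3B3-3l was lower than J1 by 1.58-fold (log2 -0.66 ± 0.14, edgeR adjusted p = 0.00178). In 2i its mean was higher, at 0.455 against 0.294 CPM, but the libraries overlapped in part and the difference was not called (log2 0.61, 95% interval 0.04 to 1.18, edgeR adjusted p = 0.0805). It was called without J1 2i replicate 2 (log2 0.87, edgeR adjusted p = 0.0345).

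Mael and Tex19.1 act on transposons at other steps. Mael (chromosome 1, 166201385 to 166238744, ENSMUSG00000040629), a nuage protein needed for transposon silencing in the male germline, had the second largest fall in both lines. It stood at 6.57, 9.02 and 8.89 CPM in J1 serum and 2.21, 2.04 and 2.20 in J1 2i. In 3B3-3l it stood at 15.9, 17.5 and 19.0 CPM in serum and 3.46, 3.31 and 2.99 in 2i. None of the 4 groups overlapped. The fall was 3.79-fold in J1 (log2 -1.92 ± 0.13, edgeR adjusted p = 2.06e-09) and 5.35-fold in 3B3-3l (log2 -2.42 ± 0.12, edgeR adjusted p = 3.35e-11). 3B3-3l was higher than J1 by 2.14-fold in serum (log2 1.10 ± 0.11, edgeR adjusted p = 1.15e-06) and by 1.52-fold in 2i (log2 0.60 ± 0.14, edgeR adjusted p = 0.00258).

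Tex19.1 (chromosome 11, 121146143 to 121148314, ENSMUSG00000039329), a mammalian gene that restrains retrotransposons in germ cells and mESCs, moved the other way on both counts. Its levels were 67.2, 64.2 and 66.4 CPM in J1 serum and 116.0, 110.0 and 136.5 in J1 2i. In 3B3-3l they were 45.4, 43.2 and 41.8 CPM in serum and 64.7, 67.5 and 66.9 in 2i. The 3B3-3l 2i libraries overlapped those of J1 serum, with 3B3-3l serum below and J1 2i above. The rise in 2i was 1.83-fold in J1 (log2 0.87 ± 0.07, edgeR adjusted p = 1.04e-08) and 1.53-fold in 3B3-3l (log2 0.61 ± 0.07, edgeR adjusted p = 8.97e-07). 3B3-3l was lower than J1 by 1.82-fold in 2i (log2 -0.86 ± 0.07, edgeR adjusted p = 5.74e-08) and 1.52-fold in serum (log2 -0.60 ± 0.07, edgeR adjusted p = 5.52e-06). Tex19.2, a paralog whose reads could be split with it, was also lower in 3B3-3l, by log2 -1.46 ± 0.21 in 2i (edgeR adjusted p = 2.89e-05) and -1.75 ± 0.22 in serum (edgeR adjusted p = 1.63e-05), and had at most 2.76 CPM in any library.

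Between the lines, Mael, Ddx4, Piwil2 and Mov10l1 were higher in 3B3-3l in both media, and Tex19.1 and Pld6 were lower in both. In 2i, 4 genes rose and 3 fell in this comparison, the third being Asz1 (4 and 2 without it), and 45.9% of all genes were called (23.0% higher and 22.9% lower). In serum, 4 rose and 3 fell, the third being Tdrd1, and 38.7% of all genes were called (21.5% higher and 17.2% lower). The median over the 9 genes was 0.24 in 2i and 0.66 in serum, beside 0.01 and 0.03 over all genes. These comparisons share their libraries with those of the media. For all genes, the share called in the same direction in both media was not counted.

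**Figure D4:**
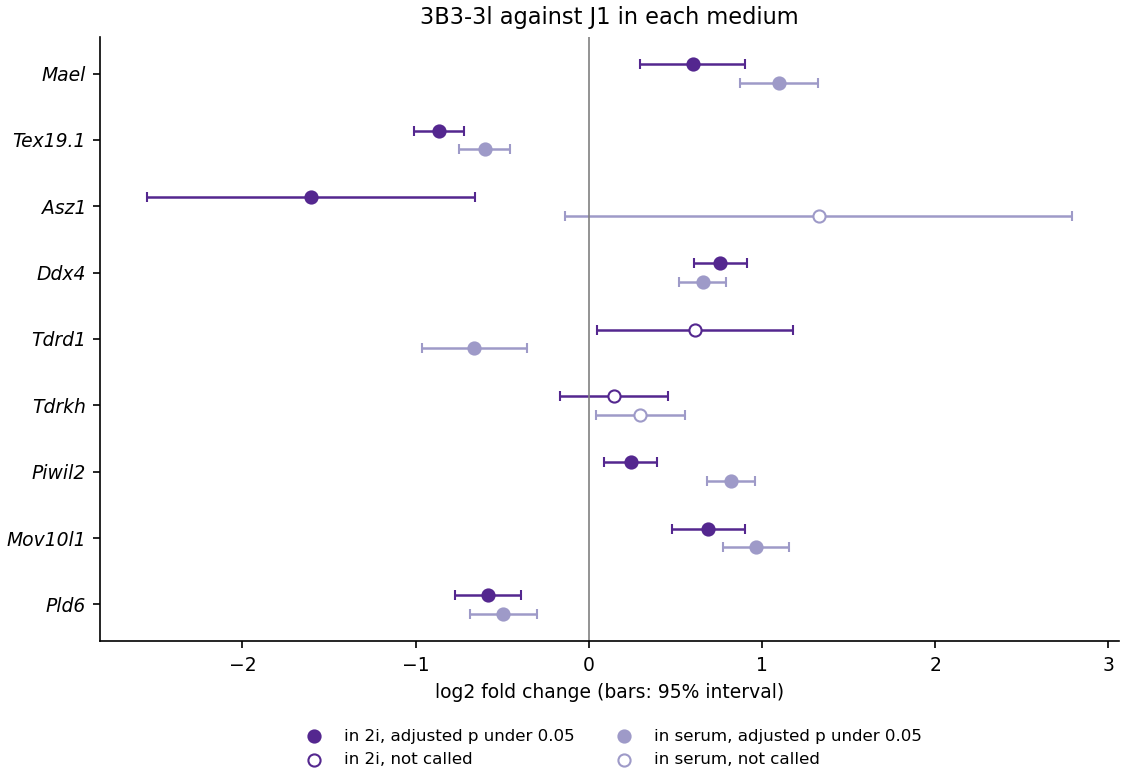
Log2 fold change of each gene in 3B3-3l against J1 (x axis) in 2i (dark) and in serum (light), with bars for the 95% interval, filled points for genes called at an adjusted p under 0.05 and open points for the others. Mael, Ddx4, Piwil2 and Mov10l1 lie right of 0 in both media, Tex19.1 and Pld6 lie left, and Tdrd1 lies at 0.61 in 2i and -0.66 in serum.

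Whether 2i acted differently on the lines was tested as an interaction (the log2 fold change in 3B3-3l minus that in J1). It was called for 5 of the 9 genes, 4 below 0 and 1 above, and for 34.7% of all genes (18.3% lower and 16.3% higher). The median was -0.26, beside -0.03 over all genes. Tdrd1 fell less in 3B3-3l (1.27 ± 0.30, edgeR adjusted p = 0.00416), and Piwil2 fell more (-0.58 ± 0.10, edgeR adjusted p = 0.000287). The fitted difference for Asz1 was -2.93 ± 0.82, and -3.60 to -2.39 with 1 library left out (-3.60 without J1 serum replicate 1). It is a description, since Asz1 was tested only because of its J1 2i counts. Without Asz1, 4 of 8 genes were called, 3 below 0 and 1 above. Ddx4 (0.10, 95% interval -0.10 to 0.31), Tdrkh (-0.15, -0.56 to 0.25), Mov10l1 (-0.27, -0.56 to 0.01) and Pld6 (-0.09, -0.36 to 0.18) were not called.

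For Mael and Tex19.1 the call of that difference rested on the full set of libraries. Mael fell more in 3B3-3l by -0.50 ± 0.18 (edgeR adjusted p = 0.0402). The call was lost when any of 7 libraries was left out: 3B3-3l 2i replicate 2 (edgeR adjusted p = 0.0543) or 3 (0.0946), 3B3-3l serum replicate 2 (0.0664) or 3 (0.0836), J1 2i replicate 1 (0.0877) or 3 (0.0685), and J1 serum replicate 1 (0.0528). Tex19.1 rose less in 3B3-3l by -0.26 ± 0.10 (edgeR adjusted p = 0.043). That call was lost without 3B3-3l 2i replicate 1 (edgeR adjusted p = 0.0957) or 3 (0.073), 3B3-3l serum replicate 1 (0.0941) or 2 (0.0753), J1 2i replicate 3 (0.0729) or J1 serum replicate 2 (0.0632). With 3B3-3l 2i replicate 3, 3B3-3l serum replicate 2 or J1 2i replicate 3 left out, 3 of the 9 genes were called. Over all genes, 5531 of 18301, 5323 of 18270 and 6857 of 18306 were called in these settings.

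Among 28 other genes of the pathway and of transposon control, 26 were tested and they were spread over both directions. In J1, 9 were higher in 2i and 11 lower, and in 3B3-3l 12 were higher and 9 lower. The called genes were 76.9% of the list in J1 and 80.8% in 3B3-3l, beside 66.1% and 65.4% of all genes. The medians were -0.10 and 0.27. 18 genes were called in both lines, of which 8 were higher in both, 8 lower in both and 2 opposite. How many of all genes were called in both lines, in the same or opposite directions, was not counted. These 3 counts are therefore a description. The 8 lower include Tdrd6, named here only for its counts. It held 25 counts in J1 serum, 33 in 3B3-3l serum, 3 in J1 2i and 1 in 3B3-3l 2i. Tdrd6 passed the filter on low counts through serum libraries alone, so it had to be lower in 2i, and its calls are a description. Piwil4, the nuclear PIWI protein MIWI2, had the largest fall in both lines among those with at least 1 CPM in a group. It went from 5.28 to 5.71 CPM in J1 serum to 0.251 to 0.317 in J1 2i (log2 -4.28 ± 0.16, edgeR adjusted p = 1.72e-12), and from 3.89 to 4.35 CPM in 3B3-3l serum to 0.0516 to 0.12 in 3B3-3l 2i, where the libraries held 5, 4 and 2 counts (log2 -5.46 ± 0.20, edgeR adjusted p = 1.33e-12). Tdrd7, another tudor protein of nuage, fell by 2.01 in J1 and 2.45 in 3B3-3l on the log2 scale (edgeR adjusted p = 4.18e-09 and 3.65e-10). The highest rises were those of Gpat2, a mitochondrial partner of PIWIL2, in J1 (log2 1.60 ± 0.09, edgeR adjusted p = 4.04e-10), of the cochaperone gene Fkbp6 in both lines (1.28 ± 0.09 and 1.79 ± 0.08, edgeR adjusted p = 3.17e-09 and 2.49e-11), and of Nanos3, an RNA-binding protein of primordial germ cells, in 3B3-3l (1.70 ± 0.21, edgeR adjusted p = 2.15e-06).

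**Figure D5:**
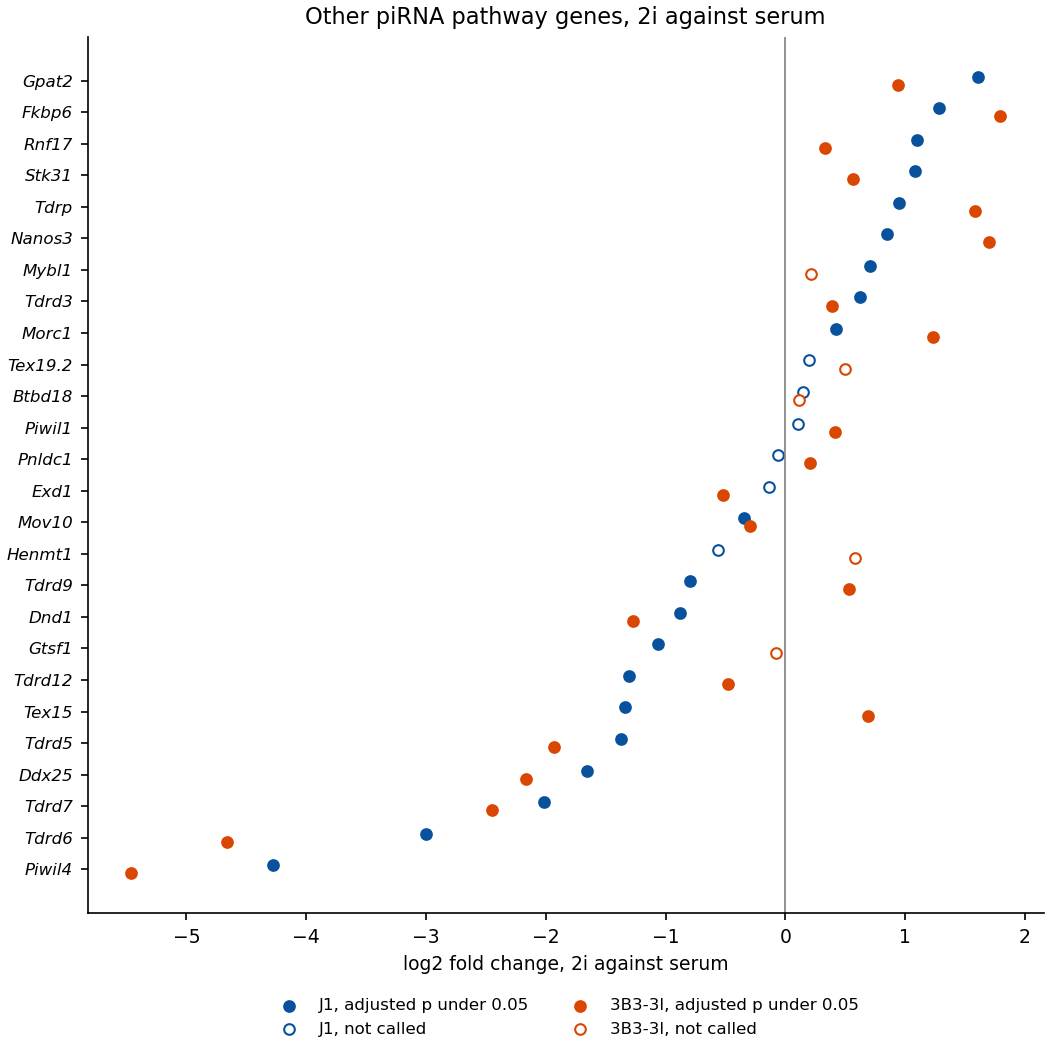
Log2 fold change in 2i against serum (x axis) of the 26 other piRNA pathway genes tested, in J1 (blue) and 3B3-3l (orange), with filled points for genes called at an adjusted p under 0.05 and open points for the others. 8 genes are called right of 0 in both lines, 8 left of 0 in both, and Tex15 and Tdrd9 on opposite sides. The 8 on the left include Tdrd6, which was tested only because of its serum counts.

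The 2 genes called in opposite directions were Tex15 and Tdrd9. Tex15, which is needed for transposon methylation guided by piRNAs, went from 7.57, 9.09 and 8.08 CPM in J1 serum to 2.89, 3.88 and 3.00 in J1 2i. In 3B3-3l it went from 11.9, 14.7 and 15.9 CPM in serum to 24.4, 21.1 and 23.4 in 2i. Every library of 3B3-3l thus lay above those of J1, and the 2i groups stood at the ends of the range. The difference of the 2i effects was 2.03 ± 0.17 (edgeR adjusted p = 4.29e-07), and in 2i 3B3-3l was 7.04-fold higher (log2 2.82 ± 0.13, edgeR adjusted p = 1.72e-10). Tdrd9, a helicase with a tudor domain that was named after its values were seen, had at most 1.06 CPM in any library and log2 fold changes of -0.79 ± 0.24 in J1 (edgeR adjusted p = 0.00919) and 0.53 ± 0.22 in 3B3-3l (edgeR adjusted p = 0.0455), which differed by 1.33 ± 0.33 (edgeR adjusted p = 0.00553). Its call in 3B3-3l was lost without any 1 of the 6 libraries of that line (edgeR adjusted p = 0.0525 to 0.162), and its call in J1 without J1 serum replicate 2 (edgeR adjusted p = 0.0661).

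Between the lines 15 of the 26 genes were called in 2i (9 higher in 3B3-3l and 6 lower) and 10 in serum (5 and 5). These are 57.7% and 38.5% of the list, beside 45.9% and 38.7% of all genes. Gtsf1, a partner of PIWI proteins, was higher in 3B3-3l in 2i by log2 1.25 ± 0.17 (edgeR adjusted p = 1.69e-05), and Piwil4 was lower by 1.62 ± 0.32 on that scale (edgeR adjusted p = 0.00127). The Piwil4 value is near the floor, with 5, 4 and 2 counts in 3B3-3l 2i and 11, 12 and 13 in J1 2i. In serum the highest were the tudor domain genes Rnf17 (1.28 ± 0.09, edgeR adjusted p = 2.9e-08) and Stk31 (0.81 ± 0.14, edgeR adjusted p = 0.000249), and Dnd1, an RNA-binding protein of germ cells, was lower (-0.62 ± 0.10, edgeR adjusted p = 0.000114). The difference of the 2i effects was called for 17 of the 26 genes (65.4%, beside 34.7% of all genes), 9 above 0 and 8 below, and for 12 to 16 with 1 library left out. Over all genes, 5225 of 18288 to 6857 of 18306 were called with 1 library left out. This difference of the 2i effects was 0.98 ± 0.23 for Gtsf1 (edgeR adjusted p = 0.00344), -0.76 ± 0.12 for Rnf17 (edgeR adjusted p = 0.000139) and -1.19 ± 0.34 for Piwil4 (edgeR adjusted p = 0.0332). The call for Piwil4 was lost when 3B3-3l 2i replicate 2 (edgeR adjusted p = 0.066) or 3 (0.142), 3B3-3l serum replicate 2 (0.0518), or J1 2i replicate 2 (0.0519) or 3 (0.0727) was left out.

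Other lists were counted only. Of 20 meiosis genes tested, 7 were higher and 7 lower in 2i in J1, and 5 were higher and 9 lower in 3B3-3l, with medians of 0.03 and -0.18. That is 70.0% of the list in each line, beside 66.1% and 65.4% of all genes. The lower genes of both lines include Meiob, named here only for its counts. It held 191 counts in J1 serum, 198 in 3B3-3l serum, 19 in J1 2i and 0 in 3B3-3l 2i. Meiob passed the filter on low counts through the serum groups alone, so its fall is a description. Of 13 regulators of germline gene silencing, such as Mga, Max, E2f6, Uhrf1 and the Dnmt genes, 7 were higher and 6 lower in 2i in J1, and 6 were higher and 2 lower in 3B3-3l. Thus 13 of 13 were called in J1 and 61.5% in 3B3-3l, beside 66.1% and 65.4% of all genes. The regulators summed to 2906 to 3023 CPM in J1 serum, 2780 to 2961 in J1 2i, 3628 to 3664 in 3B3-3l serum and 4147 to 4215 in 3B3-3l 2i, values that include transgene reads. Their part in the results was not tested.

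Levels of different genes were compared as reads per 1000 bases of effective transcript length per 1000000 reads. By this measure of level Tex19.1 came first in every group, at 44.0 ± 0.73 in J1 serum, 82.5 ± 6.43 in J1 2i, 28.3 ± 0.99 in 3B3-3l serum and 41.9 ± 1.34 in 3B3-3l 2i (SD, n = 3). The second was Pld6 in J1 serum (6.51 ± 0.62), J1 2i (6.52 ± 0.63) and 3B3-3l 2i (4.44 ± 0.08), and Mael in 3B3-3l serum (12.9 ± 1.29). Pld6, Ddx4 and Mael could not be ordered in J1 serum, since the libraries of neighbours overlapped, and the same held for Mov10l1 and Tdrkh. Overlapping neighbours in J1 2i were Ddx4 and Piwil2, and Mael and Mov10l1. In 3B3-3l serum only Mov10l1 and Pld6 overlapped, and in 3B3-3l 2i the overlaps were among Mov10l1, Mael and Piwil2 and between Tdrd1 and Asz1. The last place was held by Asz1 in 3 groups (0.03 ± 0.02 in J1 serum) and by Tdrd1 in J1 2i (0.06 ± 0.02).

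Transcript shares (reads per effective length, as a share of the gene) gave no difference that the design could call. Over 35 comparisons the smallest exact two-sided permutation p was 0.1, the lowest that 3 against 3 libraries allow, and the smallest adjusted p was 0.389. Ddx4-202 held all reads of its gene in every library. Mael-001 and Piwil2-201 were the only transcripts listed for their genes, so they held all reads by definition. The coding transcript Pld6-001 took 35.3%, 32.3% and 37.4% of Pld6 in J1 2i and 53.9%, 43.2% and 42.8% in 3B3-3l 2i, which did not overlap (exact permutation p = 0.1). Mov10l1-002, annotated as a retained intron of 845 bases, took 41.5%, 30.8% and 34.1% of Mov10l1 in J1 serum, and in every other group 0% in 1 library and 23.1% to 35.1% in the other two. These are shares per length. Its mean share of the reads was 9.07% in J1 serum, 4.48% in J1 2i, 3.9% in 3B3-3l serum and 5.59% in 3B3-3l 2i. For Tdrd1 the quantifier assigned all reads of a library to Tdrd1-002 or to Tdrd1-003, to the former in 3 of 3 J1 serum libraries and in 1 of 3 libraries of each other group, so these transcripts were not separated.

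As a description over 12 libraries, which share group and medium, the profile of log2(CPM + 0.5) most like that of Mael was that of Hmgxb4 (Pearson r = 0.996), followed by Lmo4 (0.993). Piwil2 had the same neighbours in the other order, with Lmo4 at 0.995 and Hmgxb4 at 0.994. For Ddx4 they were Lphn2 (0.998) and Prps2 (0.997), for Tdrd1 Jarid2 (0.995) and Lima1 (0.993), for Tdrkh Ninl (0.994) and Gm11223 (0.989), and for Mov10l1 Itsn1 (0.983) and Spnb1 (0.981). For Pld6, which did not fall, they were Gpn2 (0.981) and Ncrna00086 (0.978). Asz1 was under 1 CPM in every group and was left out.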

How the data were processed

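Stranded poly(A) libraries of snap-frozen mESC pellets were sequenced on an Illumina NextSeq. The authors quantified transcripts with Sailfish against mm10 transcript models (RefSeq in the methods, Ensembl identifiers in the tables) and summed them with tximport. They deposited estimated counts per gene, not scaled by depth or length, and for each library a table of TPM and estimated counts per transcript. The study pooled libraries for sequencing, and the pool of each library is not given in the sources used here.

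Estimated counts were rounded. Genes were kept by filterByExpr (17885 genes), scaled by TMM and fitted with edgeR 4.0.16 (R 4.3.3) as a quasi-likelihood model of all 12 libraries in which each group has its own coefficient (biological coefficient of variation 6.49%). There were 5 contrasts, with Benjamini-Hochberg adjustment over all genes tested and a threshold of 0.05. Errors of log2 fold changes are SE from the model. The fit was tested on simulated data. Replicate pairs of a group differed by more than sampling noise (chi-square per degree of freedom 3.91 to 24.1), so none was counted as a duplicate. Counting intervals are exact 95% intervals of a ratio of counts. For each of the 9 genes the deposited transcript reads added up to the gene count. Levels per length used these reads rather than TPM, since transcripts with an effective length under 50 bases took 18.8% to 50.2% of TPM. Coordinates and promoter sequences are those of RefSeq on GRCm38.p6, matched by symbol. Transcript names were taken from GENCODE vM1 by identifier.

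The 9 genes and the other lists were chosen with earlier results of these data known. From the other lists, genes are named where called and among the 2 highest and 2 lowest log2 fold changes of a contrast with at least 1 CPM in a group. Similar genes are the 2 of highest r with a mean of at least 1 CPM, and those of Tex19.1 are not reported here. 6 listed genes were matched by a RefSeq synonym, and Tcstv1 and Tcstv3 of the 2-cell-like list were not matched. Alternatives were DESeq2 1.42.0 size factors and Wald test, no filter, 10 counts in every library, the 6 libraries compared, a replicate block, length offsets and leaving out each library.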

Additional observations from a re-analysis of the deposited data

Results flagged for a closer look

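The 2i effects of the lines differed by the interaction test for 5 of the 9 genes, in log2 units of 3B3-3l minus J1: Mael by -0.50, Tex19.1 by -0.26, Asz1 by -2.93, Tdrd1 by 1.27 and Piwil2 by -0.58. Asz1 had 17 counts or fewer in every library and was tested only because of its counts in J1 2i, so its value is a description, and 4 of the 8 other genes differed. Among the other pathway genes named, the difference was 2.03 for Tex15, 1.33 for Tdrd9, 0.98 for Gtsf1, -0.76 for Rnf17 and -1.19 for Piwil4. By the same test 34.7% of all genes differed. Tex15 and Tdrd9 were the 2 of these 10 whose 2i effects were called in opposite directions in the lines.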

How the results depend on the processing

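Of 618 values of the 9 genes under alternative settings, 588 kept their direction and their side of the threshold, 16 were no longer called, 3 became called and 11 turned direction. All 11 belonged to differences that were not called. They were Pld6 in J1 with length offsets (-0.017) and without J1 2i replicate 3 (-0.057) or J1 serum replicate 2 (-0.0082; range without 1 library -0.057 to 0.099), Asz1 in 3B3-3l with length offsets (-0.35) and without 3B3-3l 2i replicate 2 (-0.34) or 3B3-3l serum replicate 3 (-0.14; range -0.34 to 0.31), Tdrkh between the lines in 2i without J1 2i replicate 2 (-0.028; range -0.028 to 0.34), and the differences of the 2i effects of Mov10l1 with length offsets (0.082), of Pld6 with length offsets (0.0013) and without J1 2i replicate 3 (0.0013; range -0.16 to 0.0013), and of Tdrkh without J1 2i replicate 3 (0.040; range -0.33 to 0.040). The count of genes whose 2i effects differed was 3 when 10 counts were required in every library, which left 7 of the 9 genes tested, and 3 to 5 when 1 library was left out. Over all genes, 5864 of 14585 were called in the former setting. In the latter, 5225 of 18288 to 6857 of 18306 were called. Same-numbered deviations correlated by -0.118 to 0.017, so no shared effect of the replicate number was seen. This does not show whether the samples were paired by culture or batch. With the replicate block the difference for Tex19.1 was -0.26 and no longer called (edgeR adjusted p = 0.0587), and no other call of the 9 genes changed. The difference for Piwil4 was not called with no filter (edgeR adjusted p = 0.051), length offsets (0.0565) or the DESeq2 Wald test (0.0663), nor without 1 of 5 libraries (largest p 0.142, without 3B3-3l 2i replicate 3). The call of Tdrd9 in 3B3-3l was also lost with no filter (edgeR adjusted p = 0.107), 10 counts in every library (0.0537), the replicate block (0.0563), length offsets (0.06) and the DESeq2 Wald test (0.141). Depth limits Asz1 and, in 2i, Tdrd1, for which libraries held 8 to 20 counts, and Piwil4, for which they held 2 to 13. With log2(CPM + 2), 1 of the 2 genes most like Tdrd1 changed.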
